A study of Mus musculus with 12 samples.

Results

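Emr1, Cd68, Aif1, Lyz2, Cx3cr1, Mertk, Axl, Gas6, Trem2 and Gpnmb are a set of genes by which tissue macrophages and their uptake of dead cells and lipid are commonly recognised. They were taken by symbol from a table of raw read counts, where Emr1 is the older symbol of Adgre1, and all 10 were found among its 23479 gene symbols. The table came from RNA-seq of 12 mouse prostate tumours, 3 in each of 4 groups. Every tumour grew in a C57BL/6J mouse from 100000 PTE-82 prostate cancer cells, labelled as expressing the TMPRSS2-ERG fusion gene, in 40 µl of PBS and Matrigel placed in the prostate. Anti-CSF1 tumours came from mice given an antibody to CSF1 on days 9 and 14, and Lupron/anti-CSF1 tumours from mice that also received 0.6 mg of Lupron on day 4. Lupron tumours came from mice given that Lupron dose without the CSF1 antibody, and IgG tumours from the control antibody group. Tumours were taken on day 17 after the blood had been flushed out by perfusion. The sources used here do not say whether Lupron mice were also given IgG, and all tumours descend from 1 injected cell line.

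CSF1 is a growth factor that most tissue macrophages need to survive, acting through its receptor CSF1R, and Lupron (leuprolide) is a GnRH receptor agonist whose sustained use lowers testosterone. Macrophages clear dying cells through receptors such as MERTK and AXL, which bind phosphatidylserine on the dying cell by way of the bridging protein GAS6. TREM2 is a lipid-sensing receptor that signals through TYROBP, and GPNMB is a membrane glycoprotein of lysosome-rich cells that is known from lipid-laden macrophages. MERTK, AXL, GAS6 and GPNMB are also made by cells other than macrophages, including stroma, endothelium, smooth muscle and melanocytes.

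On GRCm38 with the GENCODE M21 annotation, Adgre1 lies at chr17:57358691-57483527 on the plus strand. Cd68 lies at chr11:69664213-69666153 and Lyz2 at chr10:117277331-117282321, both on the minus strand. Mertk lies at chr2:128698956-128802894 and Gpnmb at chr6:49036546-49070929, both on the plus strand. RefSeq windows of 250 bases before to 50 bases after the start site (GRCm38.p6) were at hand for 9 of the 10 genes, Emr1 being the exception. Those of 4 genes are shown because Cd68 and Lyz2 were lower with the antibody while Mertk and Gpnmb were not called. Each is written 5′ to 3′ on the strand of its gene, from chr11:69666121-69666420 (minus) for Cd68, chr10:117282223-117282522 (minus) for Lyz2, chr2:128698665-128698964 (plus) for Mertk and chr6:49036268-49036567 (plus) for Gpnmb. Capitals mark matches to the motifs searched.
Cd68: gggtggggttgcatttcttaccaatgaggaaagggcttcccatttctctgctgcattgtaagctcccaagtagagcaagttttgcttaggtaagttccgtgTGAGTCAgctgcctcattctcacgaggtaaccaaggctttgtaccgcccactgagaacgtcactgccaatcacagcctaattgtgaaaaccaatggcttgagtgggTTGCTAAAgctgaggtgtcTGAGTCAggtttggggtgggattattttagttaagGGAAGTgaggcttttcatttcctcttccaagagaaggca
Lyz2: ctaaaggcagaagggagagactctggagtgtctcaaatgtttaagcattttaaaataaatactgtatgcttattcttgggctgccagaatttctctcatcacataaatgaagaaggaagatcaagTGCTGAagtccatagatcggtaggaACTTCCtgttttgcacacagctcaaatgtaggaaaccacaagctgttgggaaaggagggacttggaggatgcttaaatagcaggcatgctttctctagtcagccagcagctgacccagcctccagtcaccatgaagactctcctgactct
Mertk: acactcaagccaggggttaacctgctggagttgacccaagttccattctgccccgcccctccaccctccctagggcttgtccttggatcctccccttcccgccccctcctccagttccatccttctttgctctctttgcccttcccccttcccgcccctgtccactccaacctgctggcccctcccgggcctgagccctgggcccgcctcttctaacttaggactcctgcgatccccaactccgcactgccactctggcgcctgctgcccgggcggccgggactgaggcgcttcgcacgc
Gpnmb: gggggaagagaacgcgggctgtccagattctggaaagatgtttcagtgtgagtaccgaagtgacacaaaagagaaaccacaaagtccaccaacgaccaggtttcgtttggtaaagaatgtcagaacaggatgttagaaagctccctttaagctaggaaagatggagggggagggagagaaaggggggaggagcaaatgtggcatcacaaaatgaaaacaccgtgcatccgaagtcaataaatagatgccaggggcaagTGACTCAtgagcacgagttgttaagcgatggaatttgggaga
Both strands of all windows were searched for 6 motifs, named here with the factors that are known to bind such letters: GAGGAAGT (PU.1), GGAAGT (the ETS core, which lies inside the first), TGANTCA (AP-1), CACGTG (MITF and related E-box proteins), TTGCNNAA (C/EBP) and TGCTGA (bZIP proteins). The Cd68 window held TGANTCA with its first base at -149 and again at -24, TTGCNNAA at -43 and GGAAGT at +12. The Lyz2 window held TGCTGA at -125 and GGAAGT, on the other strand, at -100. Trem2 held TGANTCA at -9 and TTGCNNAA at +23, and Gpnmb held TGANTCA at +9. The windows of Aif1, Cx3cr1, Mertk, Axl and Gas6 held none of the 6. Among all 32851 RefSeq windows of this length, 7.81% held TGANTCA, 10.8% TTGCNNAA, 23.8% GGAAGT and 19.5% TGCTGA, so each match is a common one and is given as a description of the sequence alone.

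Total counts ran from 20584363 to 29965355 per library, and the 10 genes together took 0.0356% to 0.114% of them. Levels are given as CPM, which are counts relative to library sizes scaled by edgeR's TMM factors. The lowest count of any of the 10 genes in a library was 23 reads, for Trem2 in anti-CSF1 replicate 2. IgG replicate 3 stood apart from the other tumours in smooth muscle, luminal epithelial and proliferation genes. The summed CPM of 8 smooth muscle markers was 489 to 677 in anti-CSF1 tumours, 453 to 838 in Lupron/anti-CSF1 tumours and 431 to 1690 in Lupron tumours, against 685, 2850 and 12300 in IgG tumours, the last being replicate 3. The summed level of 9 luminal epithelial markers followed the same order, with 252 to 472, 314 to 403 and 195 to 642 CPM in those groups against 499, 1110 and 2930 CPM in IgG tumours. The 9 proliferation genes measured summed to 139 CPM in IgG replicate 3, against 1070 to 2350 CPM in the 11 other tumours. Results that rest on IgG replicate 3 are given with and without it. Lupron replicate 2 stood apart in 10 genes of prostate secretion and seminal vesicle. They summed to 369000 CPM there, against 362 to 110000 CPM in the 11 other tumours. It also had the lowest TMM factor, 0.772, and the highest Lyz2 (846 CPM), Aif1 (60.8 CPM) and Trem2 (13.5 CPM). The part of this tissue content in those levels was not tested.

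The 5 genes of macrophage identity were all lower in tumours that had received the CSF1 antibody. Emr1, which encodes the surface protein F4/80, stood at 12.6, 3.46 and 8.67 CPM in anti-CSF1 tumours and 8.92, 4.43 and 6.2 CPM in Lupron/anti-CSF1 tumours, against 56.6, 50.8 and 53.4 CPM in Lupron tumours and 48.5, 105 and 21.6 CPM in IgG tumours. Every antibody tumour lay below every tumour without the antibody. Averaged over the groups with and without Lupron, the antibody effect on Emr1 was -2.93 ± 0.41 on the log2 scale (SE; 95% interval -3.83 to -2.02), a 7.61-fold lower level with an adjusted p of 0.00798 (quasi-likelihood test of edgeR, Benjamini-Hochberg adjusted over 15082 tested genes). In bulk tumour RNA, fewer macrophages and less of a transcript per macrophage cannot be told apart.

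**Figure D1:**
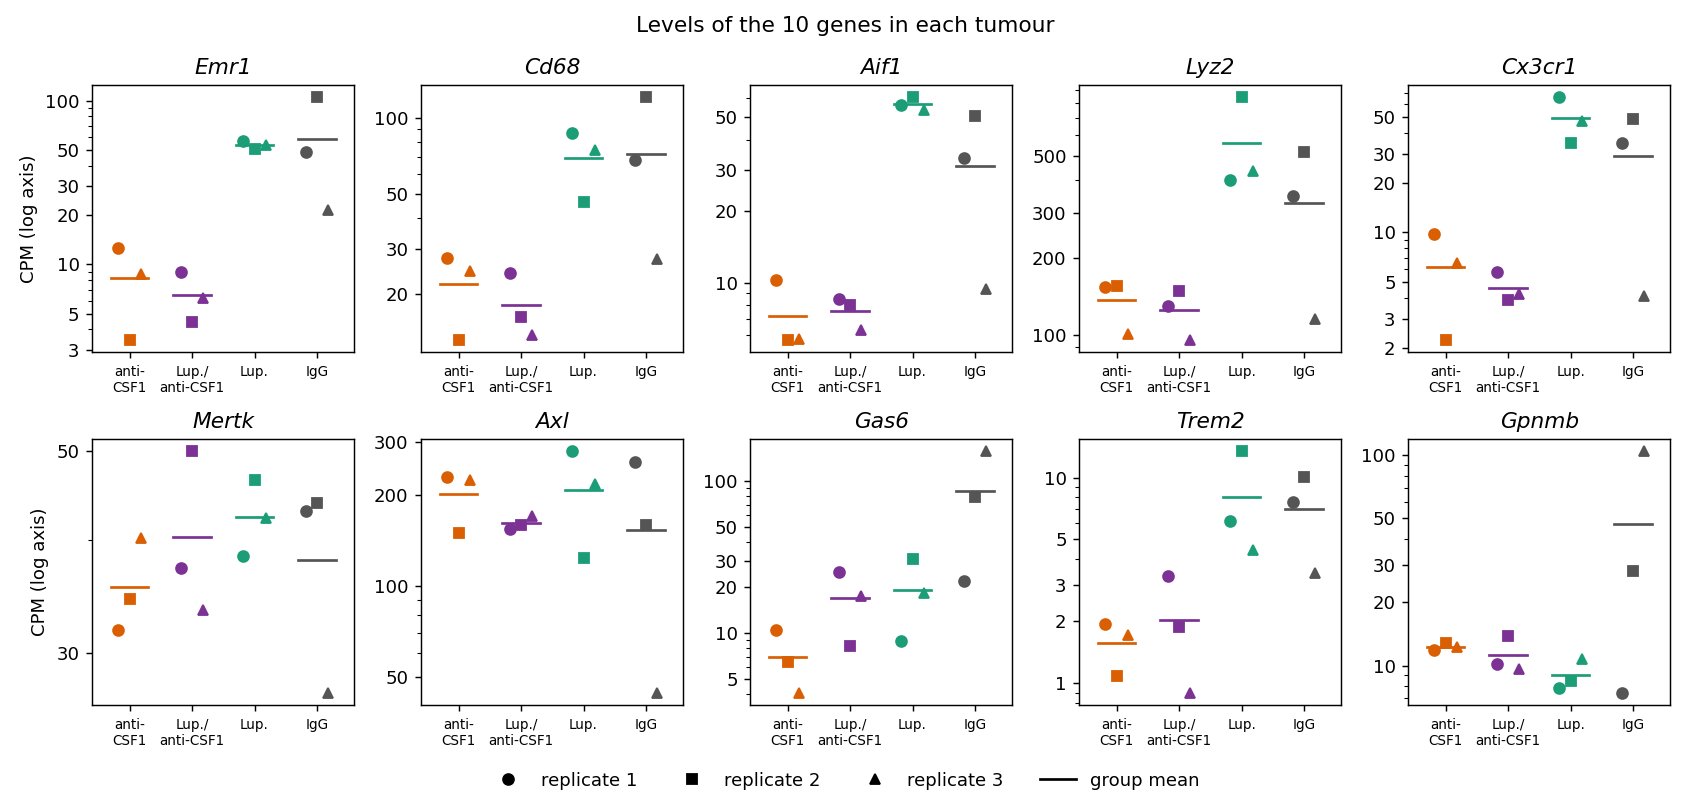
CPM of each of the 10 genes on log axes, with 1 point per tumour and a line at each group mean. Emr1 and Trem2 separate all 6 antibody tumours from the 6 others, Mertk spans only 27.1 to 50.1 CPM, and the highest Gpnmb and Gas6 values belong to IgG replicate 3.

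Cx3cr1, the receptor for fractalkine, showed 9.76, 2.23 and 6.54 CPM in anti-CSF1 tumours and 5.79, 3.89 and 4.2 CPM in Lupron/anti-CSF1 tumours, against 66.4, 34.8 and 47.6 CPM in Lupron tumours and 34.9, 48.6 and 4.13 CPM in IgG tumours. Of the tumours without the antibody, IgG replicate 3 alone fell inside the range of the antibody tumours. The effect was -2.83 ± 0.53, or 7.1-fold lower (edgeR, adjusted p = 0.0251). Aif1, which encodes the cytoskeletal protein IBA1, stood at 10.2, 5.73 and 5.79 CPM in anti-CSF1 tumours and 8.49, 8 and 6.27 CPM in Lupron/anti-CSF1 tumours, against 56.3, 60.8 and 53.6 CPM in Lupron tumours and 33.6, 50.7 and 9.4 CPM in IgG tumours. The overlap between the groups came from anti-CSF1 replicate 1 at the top of its group and IgG replicate 3 at the bottom of its own. Aif1 was 5.68-fold lower (-2.51 ± 0.35; edgeR, adjusted p = 0.00798).

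Cd68, a protein of the macrophage endosome and lysosome, stood at 27.8, 13.1 and 24.7 CPM in anti-CSF1 tumours and 24.2, 16.1 and 13.7 CPM in Lupron/anti-CSF1 tumours, against 87.4, 46.1 and 74.6 CPM in Lupron tumours and 67.7, 121 and 27.5 CPM in IgG tumours. Anti-CSF1 replicate 1 and IgG replicate 3 were again the pair that met. The Cd68 effect was -1.83 ± 0.35, 3.56-fold lower (edgeR, adjusted p = 0.0253). Lyz2, the lysozyme of macrophages and granulocytes, stood at 154, 155 and 101 CPM in anti-CSF1 tumours and 130, 148 and 95.7 CPM in Lupron/anti-CSF1 tumours, against 403, 846 and 436 CPM in Lupron tumours and 348, 518 and 115 CPM in IgG tumours. IgG replicate 3 lay below 4 of the 6 antibody tumours, whereas all 6 lay below the 5 other tumours. Lyz2 was 3.28-fold lower with the antibody (-1.71 ± 0.34; edgeR, adjusted p = 0.0318).
Lyz2 has a similar neighbour, Lyz1: 15.4% of the 50-base and 1.97% of the 100-base windows of its exons also occur in Lyz1, so reads may be split between the pair. Lyz1 averaged 0.499 ± 0.397 CPM in anti-CSF1, 0.935 ± 0.815 in Lupron/anti-CSF1, 1.79 ± 1.54 in Lupron and 4.94 ± 3.37 CPM in IgG tumours (SD, n = 3 each). Per kilobase of exon, Lyz1 averaged at most 3.91 CPM in a group, and Lyz2 at least 95 CPM.

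The lipid receptor gene Trem2 was also lower with the antibody. It stood at 1.94, 1.09 and 1.71 CPM in anti-CSF1 tumours and 3.33, 1.87 and 0.895 CPM in Lupron/anti-CSF1 tumours, against 6.12, 13.5 and 4.45 CPM in Lupron tumours and 7.57, 10.1 and 3.42 CPM in IgG tumours. The groups did not overlap, although Lupron/anti-CSF1 replicate 1 and IgG replicate 3 came close to each other. The effect was -2.06 ± 0.43, 4.17-fold lower (edgeR, adjusted p = 0.0378). Its signalling partner Tyrobp missed the threshold at -1.45 ± 0.34 (edgeR, adjusted p = 0.06).

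The phagocytic receptors Mertk and Axl showed no such drop. Mertk stood at 31.8, 34.4 and 40.2 CPM in anti-CSF1 tumours and 37.2, 50.1 and 33.5 CPM in Lupron/anti-CSF1 tumours, against 38.4, 46.5 and 42.3 CPM in Lupron tumours and 43, 43.9 and 27.1 CPM in IgG tumours. The groups overlapped throughout, and the highest tumour was only 1.85-fold above the lowest, the narrowest span of the 10 genes. The antibody effect was -0.09 ± 0.16 with a 95% interval of -0.44 to 0.27 (edgeR, adjusted p = 0.777), an interval that lies above the estimates of all 5 identity genes. Axl stood at 230, 150 and 225 CPM in anti-CSF1 tumours and 155, 159 and 170 CPM in Lupron/anti-CSF1 tumours, against 281, 124 and 217 CPM in Lupron tumours and 258, 159 and 44 CPM in IgG tumours. IgG replicate 3 was far below the other 11 tumours, which lay between 124 and 281 CPM. The Axl effect was 0.01 ± 0.35 with an interval of -0.76 to 0.79 (edgeR, adjusted p = 0.985), and without IgG replicate 3 it was -0.21 ± 0.22 (adjusted p = 0.711).

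Gas6, the ligand of both receptors, stood at 10.5, 6.45 and 4.02 CPM in anti-CSF1 tumours and 25.4, 8.27 and 17.6 CPM in Lupron/anti-CSF1 tumours, against 8.86, 30.6 and 18.5 CPM in Lupron tumours and 22.1, 78.7 and 159 CPM in IgG tumours. The low group was anti-CSF1 without Lupron, and the high values were those of IgG replicates 2 and 3. The averaged effect was -1.90 ± 0.49 with an interval of -2.99 to -0.82, which did not pass over all genes by edgeR (adjusted p = 0.086) but did by DESeq2 (-1.95 ± 0.48, adjusted p = 0.00194). It was -1.51 ± 0.45 without IgG replicate 3 (edgeR, adjusted p = 0.124) and, among the fits with 1 library left out, passed in the one without IgG replicate 1 (adjusted p = 0.0166). Exons of Gas6 share 34 bases with Tmem255b on the opposite strand and those of Cx3cr1 share 78 with Gm33858, and no source used here tells whether counting was by strand.

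Gpnmb stood at 11.8, 12.8 and 12.3 CPM in anti-CSF1 tumours and 10.2, 13.8 and 9.67 CPM in Lupron/anti-CSF1 tumours, against 7.84, 8.49 and 10.7 CPM in Lupron tumours and 7.38, 28.1 and 105 CPM in IgG tumours. In 10 of the 12 tumours it lay between 7.38 and 13.8 CPM, and IgG replicates 2 and 3 alone were above that range. The averaged effect of -0.81 ± 0.47 (interval -1.84 to 0.22; edgeR, adjusted p = 0.364) rested on them: it was -0.11 ± 0.28 without IgG replicate 3, and 0.52 without IgG replicates 2 and 3 together, neither of them past the threshold (edgeR, adjusted p = 0.893 and 0.488). Without IgG replicate 1 it was -1.06 and passed (edgeR, adjusted p = 0.0476). IgG replicates 2 and 3 had the most smooth muscle RNA and the highest Gpnmb and Gas6. At 685, 2850 and 12300 CPM of smooth muscle markers, IgG tumours had 7.38, 28.1 and 105 CPM of Gpnmb. Their Gas6 was 22.1, 78.7 and 159 CPM, and their luminal epithelial markers summed to 499, 1110 and 2930 CPM. Lupron replicate 2 was next in both marker sums, at 1690 and 642 CPM, with 8.49 CPM of Gpnmb and 30.6 CPM of Gas6. The part of either tissue in the Gpnmb or Gas6 level was not tested. Of 8 melanocyte and glial markers, 3 were at 0 in every library and 7 averaged under 1 CPM in each group.

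**Figure D2:**
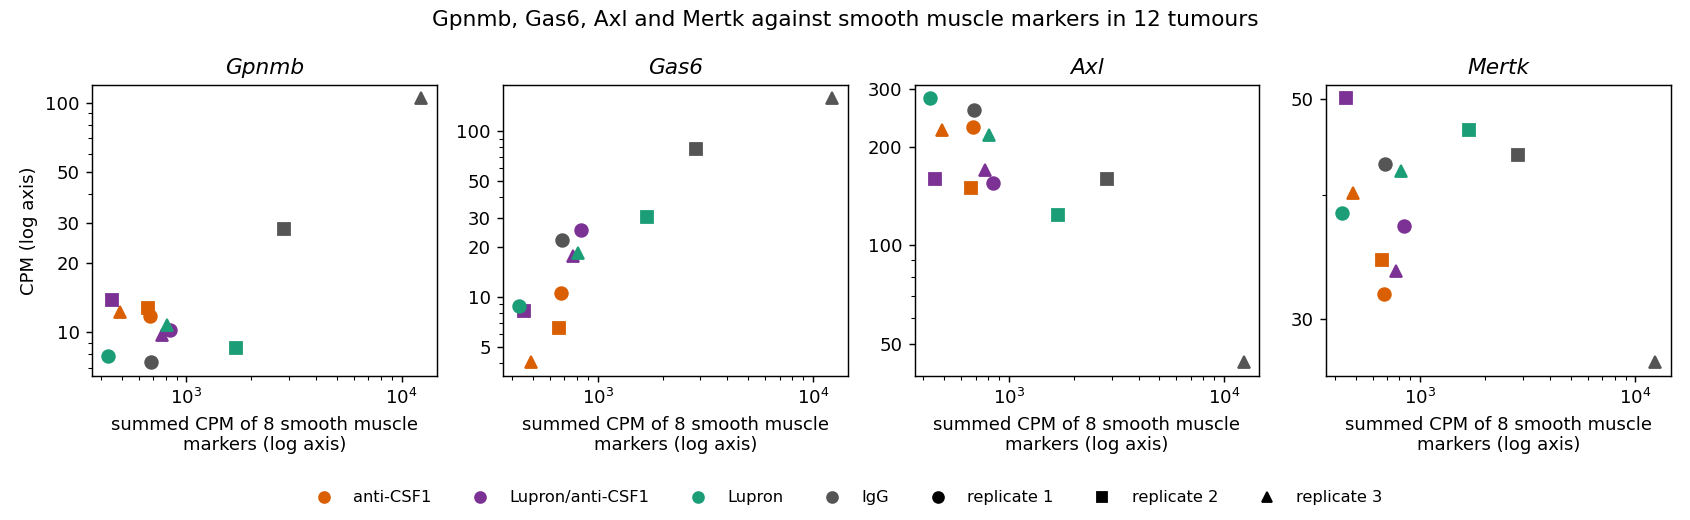
CPM of Gpnmb, Gas6, Axl and Mertk against the summed CPM of 8 smooth muscle markers, both on log axes, with 1 point per tumour coloured by group. IgG replicate 3, at 12300 CPM of markers, holds the highest Gpnmb and Gas6 and the lowest Axl and Mertk.

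In all, 6 of the 10 genes were called lower with the antibody (Emr1, Cd68, Aif1, Lyz2, Cx3cr1 and Trem2) and none higher, where 1.79% of the 15082 tested genes were called lower, 0.0796% higher and 1.87% in either direction (edgeR). The median effect was -1.87 over the 10 genes and 0.02 over all tested genes, on the log2 scale. Emr1 and Trem2, 2 of the 10, were lower with no overlap between antibody and other tumours, against 1.69% of tested genes. Without IgG replicate 3 the same 6 genes were called, from -1.92 ± 0.24 for Lyz2 to -3.12 ± 0.32 for Emr1, where 3.13% of genes were called. All 6 were then free of overlap, against 3.28% of genes. For Cd68, Aif1, Lyz2 and Cx3cr1 this follows from the choice of library, since no other tumour without the antibody had overlapped. DESeq2 called the same 6 genes and Gas6, among 1425 genes of the table, against 282 by edgeR. The calls depended on which libraries were in the fit: with 1 left out, 2 to 8 of the genes passed. The count was 2 without replicate 2 or 3 of anti-CSF1, of Lupron/anti-CSF1 or of Lupron, or without IgG replicate 2, and 8 without IgG replicate 1, where Gas6 and Gpnmb were added and 1577 genes of the table were called. Emr1 and Aif1 passed in all 12 such fits, Cd68 and Cx3cr1 in 4, Lyz2 and Trem2 in 3, although the 6 effects stayed between -3.15 and -1.46.

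**Figure D3:**
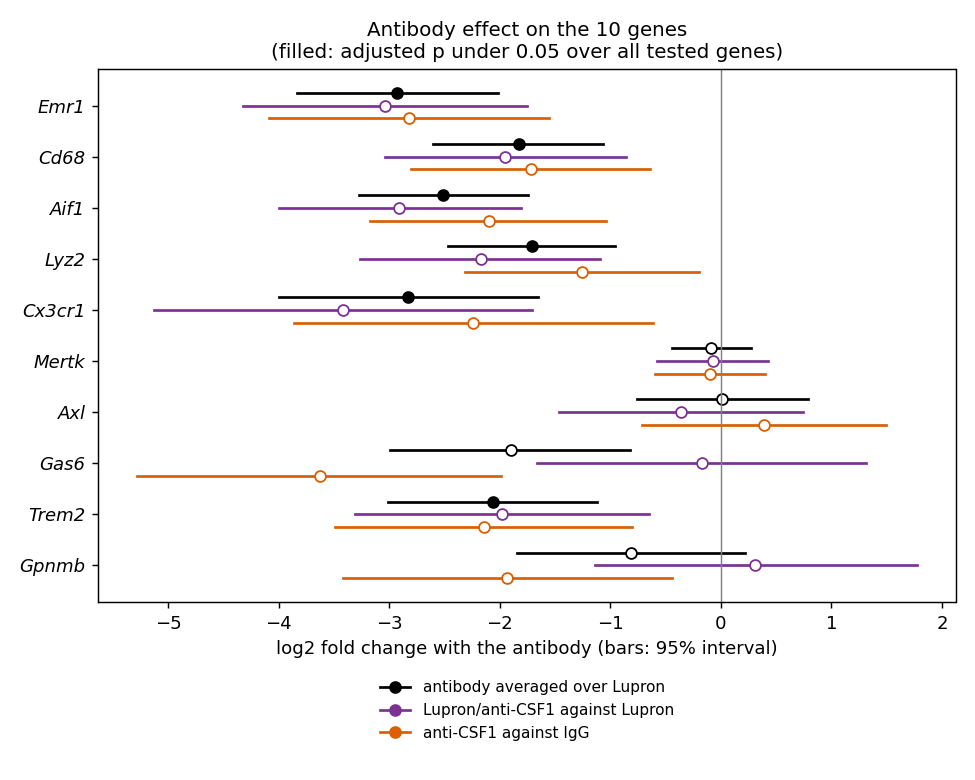
Antibody effect on each gene as a log2 fold change with its 95% interval, averaged over Lupron (black), within Lupron (purple) and without Lupron (orange). Filled points pass an adjusted p of 0.05 over all tested genes, and those are Emr1, Cd68, Aif1, Lyz2, Cx3cr1 and Trem2 in the averaged comparison.

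Taken separately with 3 tumours a group, none of the 10 genes passed by edgeR over the 12 libraries for the antibody either without or with Lupron. For anti-CSF1 against IgG, 1 gene of the table passed (0.00663% of those tested) and it was not among the 10, whereas 3446 genes and 8 of the 10 had an unadjusted p under 0.05. DESeq2 called 1841 genes and 7 of the 10, namely Emr1, Cd68, Aif1, Cx3cr1, Gas6, Trem2 and Gpnmb. Emr1, Gas6 and Trem2 were lower in all 3 anti-CSF1 tumours than in any IgG tumour, 3 of the 10 where 12.8% of tested genes were. Emr1 changed by -2.82 ± 0.58 (edgeR, adjusted p = 0.0875), Aif1 by -2.10 ± 0.48 (0.0903), Cx3cr1 by -2.24 ± 0.74 (0.123) and Lyz2 by -1.26 ± 0.48 (0.161), all as values that missed the threshold. Cd68 was at -1.72 ± 0.49 (edgeR, adjusted p = 0.0974), Trem2 at -2.14 ± 0.61 (0.0969), Mertk at -0.10 ± 0.23 and Axl at 0.39 ± 0.50. Gas6 had the largest value, -3.63 ± 0.75 (edgeR, adjusted p = 0.0878), and Gpnmb was at -1.93 ± 0.68 (0.138). Without IgG replicate 3, Emr1 (-3.21 ± 0.47), Aif1 (-2.54 ± 0.28), Cd68 (-2.11 ± 0.38) and Cx3cr1 (-2.75 ± 0.47) were called, where 1.11% of genes were, while Gas6 stood at -2.85 ± 0.67 (edgeR, adjusted p = 0.0832) and Gpnmb at -0.53 ± 0.42 (0.654). Without IgG replicate 1, 4 of the set were called as well, Emr1, Aif1, Gas6 and Gpnmb, among 2611 genes of the table.
For Lupron/anti-CSF1 against Lupron, no gene of the table passed (0%), with 642 genes and 6 of the 10 at an unadjusted p under 0.05, and with 236 genes and 5 of the 10 called by DESeq2. The same 6 genes that were called in the averaged comparison were free of overlap here, all 3 Lupron/anti-CSF1 tumours being below all 3 Lupron tumours, against 6.93% of tested genes. Emr1 was at -3.04 ± 0.58 (edgeR, adjusted p = 0.0983), Cx3cr1 at -3.42 ± 0.78 (0.157), Aif1 at -2.91 ± 0.50 (0.0693) and Lyz2 at -2.17 ± 0.49 (0.157). Cd68 was at -1.95 ± 0.50 (edgeR, adjusted p = 0.233) and Trem2 at -1.98 ± 0.61 (0.444). Gas6 was at -0.17 ± 0.68 and Gpnmb at 0.31 ± 0.66, close to 0, as were Mertk at -0.07 ± 0.23 and Axl at -0.36 ± 0.50. Leaving out IgG replicate 3, a library of neither group that enters the shared estimate of spread, gave 5 calls (Emr1, Cd68, Aif1, Lyz2 and Cx3cr1) where 1.38% of genes were called. A fit to the 2 compared groups alone also called 5, among 204 genes of the table.

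**Figure D4:**
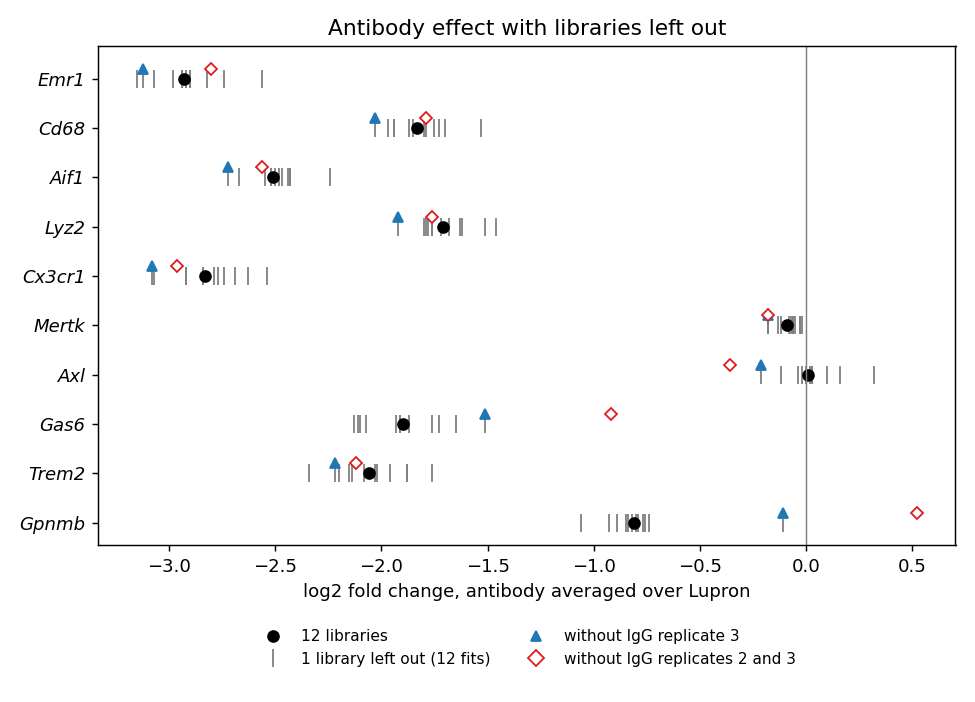
Antibody effect averaged over Lupron for each gene with all 12 libraries, with each library left out in turn, without IgG replicate 3 and without IgG replicates 2 and 3 together. Mertk stays within -0.18 to -0.02 with 1 library left out, whereas Gpnmb runs from -1.06 to -0.11 and reaches 0.52 with both IgG libraries removed.

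None of the 10 genes was called with Lupron by edgeR over the 12 libraries. Averaged over the antibody, 0% of tested genes passed by edgeR, with 1366 genes and 1 of the 10 at an unadjusted p under 0.05 and 12 genes but none of the 10 called by DESeq2. The effects of Lupron on the 5 identity genes ran from -0.23 ± 0.38 for Emr1 to 0.47 ± 0.33 for Aif1, and the interval for Emr1 was -1.07 to 0.61. The gene with an unadjusted p under 0.05 was Gpnmb, at -1.26 ± 0.47 (edgeR, adjusted p = 0.525) and at -0.55 ± 0.28 without IgG replicate 3 (0.708). Mertk was at 0.17 ± 0.16, Axl at 0.06 ± 0.35, Gas6 at -0.44 ± 0.48 and Trem2 at 0.27 ± 0.42. Lupron against IgG likewise gave 0% of genes called, with 2478 genes and 2 of the 10 at an unadjusted p under 0.05. DESeq2 called 404 genes, among them Gas6 and Gpnmb. Aif1 was the only one of the set with no overlap between these groups, all 3 Lupron tumours at 53.6 CPM or more against at most 50.7 CPM in IgG tumours (0.87 ± 0.47; edgeR, adjusted p = 0.347), and 11.1% of tested genes were higher in that way. Gas6 (-2.16 ± 0.70) and Gpnmb (-2.38 ± 0.69) had the lowest values in this comparison (edgeR, adjusted p = 0.284 for each). Without IgG replicate 3, Gas6 was at -1.39 ± 0.65, Gpnmb at -0.98 ± 0.42 and Aif1 at 0.43 ± 0.28 (edgeR, adjusted p = 0.8 for each). Of the other genes, Emr1 was at -0.12 ± 0.54, Cd68 at -0.05 ± 0.48, Lyz2 at 0.78 ± 0.48, Cx3cr1 at 0.77 ± 0.71, Mertk at 0.16 ± 0.23, Axl at 0.43 ± 0.50 and Trem2 at 0.19 ± 0.58. Both passed without IgG replicate 1 (edgeR, adjusted p = 0.0446 for Gas6 and 0.0318 for Gpnmb), whereas without IgG replicates 2 and 3 Gpnmb was at 0.27 and Gas6 at -0.22.
The difference between the antibody effect with Lupron and the antibody effect without it was tested as an interaction. None of the 10 genes passed and 0% of the table did, with 1021 genes and 2 of the 10 at an unadjusted p under 0.05 and 188 genes and 1 of the 10, Gas6, called by DESeq2. Gas6 had an interaction of 3.46 ± 0.98 (edgeR, adjusted p = 0.498) and Gpnmb of 2.24 ± 0.94 (0.69), which were 2.68 and 0.84 without IgG replicate 3, and 1.51 and -0.40 without IgG replicates 2 and 3. Among the identity genes the interaction was -0.22 ± 0.77 for Emr1 (interval -1.91 to 1.47), -0.23 ± 0.68 for Cd68, -0.80 ± 0.66 for Aif1, -0.91 ± 0.67 for Lyz2 and -1.18 ± 1.01 for Cx3cr1. It was 0.02 ± 0.32 for Mertk, -0.75 ± 0.71 for Axl and 0.17 ± 0.83 for Trem2.

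In the order of group means, Lupron and IgG tumours were above both antibody groups for Emr1, Cd68, Aif1, Lyz2, Cx3cr1 and Trem2. The IgG and Lupron ranges overlapped for all of these but Aif1, and those of the antibody groups overlapped for all 6. Emr1 averaged 8.24 ± 4.58 CPM in anti-CSF1 tumours and 6.51 ± 2.26 CPM in Lupron/anti-CSF1 tumours, against 53.6 ± 2.89 CPM in Lupron tumours and 58.3 ± 42.4 CPM in IgG tumours (SD, n = 3 each). The spread was thus widest in the IgG group, which ran from 21.6 to 105 CPM, and narrow in the Lupron group. Gpnmb had an order of its own, with 12.3 ± 0.514 CPM in anti-CSF1, 11.2 ± 2.26 CPM in Lupron/anti-CSF1 and 9.01 ± 1.5 CPM in Lupron tumours, against 46.9 ± 51.5 CPM in IgG tumours, and no neighbouring groups of Gpnmb were free of overlap.
Per kilobase of exon, on a scale that allows genes to be compared, Lyz2 was highest in every group, with mean levels of 104 CPM per kb in anti-CSF1, 95 in Lupron/anti-CSF1, 427 in Lupron and 248 in IgG tumours. Trem2 was lowest in 3 of the groups and averaged 0.319, 0.41, 1.62 and 1.42 CPM per kb in the same group order. Axl had a mean level of 40.1 CPM per kb in anti-CSF1 and 32 in Lupron/anti-CSF1 tumours, above the 17.3 and 14.3 CPM per kb of Cd68 there. In Lupron and IgG tumours the order of that pair was the other way round, with 41.1 and 30.6 CPM per kb for Axl and 55.1 and 57.3 for Cd68.

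Within single tumours the balance of some genes with Emr1 differed with the antibody. The log2 ratio of counts to those of Emr1 does not depend on library size, and the difference between antibody and other tumours was tested for each of the 9 other genes by an exact permutation test within Lupron strata, two-sided, for which 0.005 was the smallest p possible. Mertk relative to Emr1 was 2.47 ± 0.81 in antibody tumours and -0.35 ± 0.53 in the others (SD, n = 6 each), a difference of 2.83 (exact p = 0.005, adjusted over the 9 ratios 0.015). Axl relative to Emr1 was 4.73 ± 0.52 against 1.61 ± 0.74, a difference of 3.12 (exact p = 0.005, adjusted 0.015), and the 2 sets of tumours did not overlap for either gene. Cd68 relative to Emr1 was 1.5 ± 0.33 against 0.33 ± 0.27, a difference of 1.17 with no overlap (exact p = 0.005, adjusted 0.015), so Cd68 fell less than Emr1. These 3 ratios passed with each library left out in turn. Emr1, the denominator, had the lowest averaged antibody effect of the set, at -2.93. Mertk and Axl had averaged effects near 0 (-0.09 and 0.01), so their ratios restate the fall of Emr1 and are not separate evidence.
Lyz2 relative to Emr1 differed by 1.34 (exact p = 0.015, adjusted 0.0338), a call lost in 5 of 12 fits with a library left out, those without Lupron replicate 1 or 3 or any 1 IgG tumour. Gpnmb relative to Emr1 differed by 2.47 (exact p = 0.02, adjusted 0.036) and passed in 1 of the 12, the one without IgG replicate 3, where the difference was 3.24. Aif1 (0.53, exact p = 0.11) and Cx3cr1 (0.28, exact p = 0.535) were not shown to change in ratio to Emr1, nor were Trem2 (0.89, exact p = 0.05, adjusted 0.075) and Gas6 (1.17, exact p = 0.23).

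**Figure D5:**
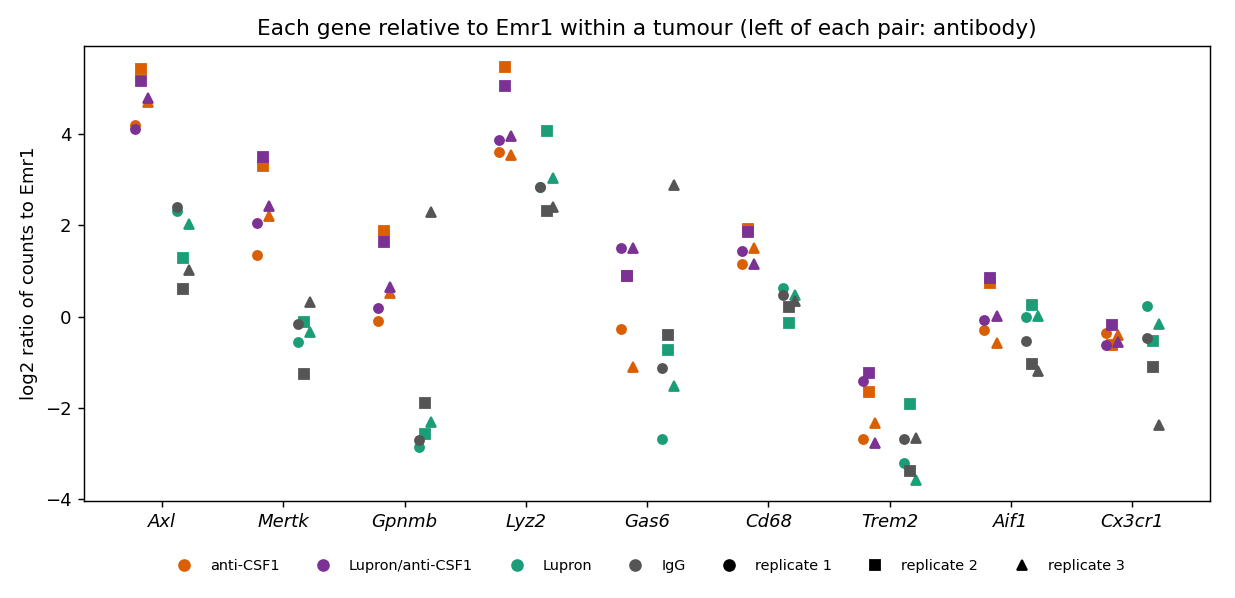
Log2 ratio of the counts of each gene to those of Emr1, with 1 point per tumour, the antibody tumours left of the others for each gene. Axl, Mertk and Cd68 separate the tumours completely, whereas the sets overlap for Aif1 and Cx3cr1.

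Across the 12 tumours, Emr1, Cd68, Aif1, Lyz2, Cx3cr1 and Trem2 followed one another, with Pearson's r of 0.81 to 0.97 over their 15 pairs on log2 CPM, given as a description since all points share the antibody contrast. Mertk and Axl had an r of 0.46, Gas6 and Gpnmb of 0.68, and Axl and Gpnmb of -0.84. The genes of the table most like each member by the same measure (12807 candidates averaging at least 1 CPM) split in the same way. Emr1 was nearest to Csf1r and Dock2 (0.99 each), Cd68 to C3ar1 (0.99), Aif1 to Ly86 (1), Lyz2 to Cd84 and Fcgr3 (0.99 each), Cx3cr1 to Mpeg1 (1) and Trem2 to Clec4a1 and Wfdc17 (0.94 each), most of them known from myeloid cells. Mertk was nearest to the T cell receptor chain gene Cd247 (0.93), to Lipc (0.9) and to Cd40 (0.84). Axl was nearest to Sipa1 and Stx2 (0.98 each), Gas6 to Tmem30b, Ccdc92 and Adhfe1 (0.98 each) and Gpnmb to Net1 (0.97), none of which is in common use as a macrophage marker.

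Genes that work with the members were read from lists. Of 18 genes of the growth factor, lineage and chemokine axis, 11 were called lower with the antibody and none higher, with a median of -2.01 (1.79% of all tested genes were called lower). Csf1r was at -2.38 ± 0.31, the integrin gene Itgam at -2.27 ± 0.28 and the complement gene C1qb at -2.46 ± 0.32 (edgeR, adjusted p = 0.00798 for each). Exons of Csf1r share 873 bases with Hmgxb3 on the opposite strand, and whether counting was by strand is not known. The ligands did not pass: Csf1 was at -0.23 ± 0.33 (edgeR, adjusted p = 0.702), Il34, the second ligand of CSF1R, at -0.04 ± 0.58 (0.979) and Cx3cl1, the ligand of CX3CR1, at 0.23 ± 0.33 (0.705). Without IgG replicate 3, 13 of the 18 were called lower, where 3.13% of genes were called.
Of 25 genes for the clearance of dying cells, 2 were called lower and none higher, with a median of 0.09, where 1.79% of all tested genes were called lower. They were Timd4, a phosphatidylserine receptor (-2.43 ± 0.49; edgeR, adjusted p = 0.0312), and Elmo1, which acts in engulfment (-1.31 ± 0.23; adjusted p = 0.0179). Timd4 averaged 0.434 ± 0.134 CPM in anti-CSF1 and 0.397 ± 0.0397 CPM in Lupron/anti-CSF1 tumours, against 1.5 ± 0.863 CPM in Lupron and 3.38 ± 2.16 CPM in IgG tumours (SD, n = 3 each). The remaining partners of Mertk and Axl did not pass: the sister receptor Tyro3 was at -0.82 ± 0.51 (edgeR, adjusted p = 0.391), the bridging ligand Pros1 at 0.70 ± 0.20 (0.12) and the bridging protein Mfge8 at 0.51 ± 0.22 (0.232). Without IgG replicate 3, 5 of the 25 were called lower, where 3.13% of genes were called.
Of 19 genes of TREM2 signalling and the lipid-laden macrophage state, 2 were called lower and none higher, with a median of -0.42, against 1.79% of all tested genes called lower. Apoe, a lipid carrier that binds TREM2, averaged 376 ± 93.4 CPM in anti-CSF1 and 302 ± 65.7 CPM in Lupron/anti-CSF1 tumours, against 1650 ± 56.8 CPM in Lupron and 1120 ± 398 CPM in IgG tumours (SD, n = 3 each), a change of -2.02 ± 0.23 (edgeR, adjusted p = 0.0055). The phosphatase gene Inpp5d, which dampens such signalling, was at -1.43 ± 0.31 (edgeR, adjusted p = 0.0454). Without IgG replicate 3, 5 of the 19 were called lower and 1 higher, where 3.13% of genes were called in either direction.

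Markers of other cells that could carry members were read in the same comparison. Of 9 tested monocyte markers, 1 was called lower, F13a1 (-1.80 ± 0.35, edgeR, adjusted p = 0.0268), where 1.79% of all tested genes were. Not called were Ly6c2 (-1.3), Ccr2 (-1.39), Chi3l3 (-1.59), Treml4 (-2.05), Cd300e (-6.19), Plac8 (0.09), Ace (0.19) and Vcan (0.9). Without IgG replicate 3, 4 of the 9 were called lower with a median of -1.54, where 3.13% of genes were called. The summed level of these markers was 974 to 1750 CPM in anti-CSF1 and 1050 to 2010 in Lupron/anti-CSF1 tumours. It was 825 to 1120 CPM in Lupron and 427 to 1490 CPM in IgG tumours. A sum follows its most abundant genes, so it does not show how the less abundant markers changed. None of 7 tested neutrophil markers, 10 fibroblast markers or 9 endothelial markers was called. Neutrophil markers, which bear on Lyz2, were summed over the 9 found in the count table. They came to 8.27 to 50.2 CPM in anti-CSF1, 8.81 to 31.7 in Lupron/anti-CSF1, 10.6 to 29.8 in Lupron and 5.95 to 24.3 CPM in IgG tumours. Of them, 4 averaged under 1 CPM, namely Mmp8, Retnlg, Camp and Ngp. Fibroblast markers, which bear on Axl and Gas6, summed to 3630 to 7560 CPM in anti-CSF1, 3400 to 6120 in Lupron/anti-CSF1, 2540 to 4470 in Lupron and 2810 to 5420 CPM in IgG tumours. IgG replicate 3, the lowest in Axl at 44 CPM, was also the lowest IgG tumour in these fibroblast markers, at 2810 CPM. Lupron replicate 2 was lower in the markers, at 2540 CPM, with 124 CPM of Axl. Lupron replicate 1, at 4470 CPM of the markers, had the highest Axl, 281 CPM. Tumours with more of the markers had less Axl than that. Lupron/anti-CSF1 replicate 1 had 6120 CPM of the markers with 155 CPM of Axl, and IgG replicate 2 had 5380 with 159. Anti-CSF1 replicate 3, the highest in the markers at 7560 CPM, had 225 CPM of Axl. IgG replicate 3 was also the lowest tumour in the proliferation genes, at 139 CPM. The part of fibroblasts or of the injected tumour cells in the Axl level was not tested.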

How the data were processed

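RNA from 12 tumours was isolated with RNeasy Plus columns and made into libraries with a NuGen Ovation kit for mouse, per the labels' protocols. Reads were handled by the authors with bcl2fastq 2.20.0.422, cutadapt 1.8.1 and HTSeq 0.6.1 on mm10, per the submitters' processing notes. The sources used here name no aligner, annotation or strand setting. The deposited table holds raw counts per gene symbol, with no normalization by the authors. All columns matched a sample label, and no pair of libraries looked like a duplicate (lowest chi-square per degree of freedom 38).

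Counts were fitted in R 4.3.3 with edgeR 4.0.16: its filter on low counts left 15082 genes, all 10 members among them, with TMM scaling, 1 mean per group over all 12 libraries, a robust quasi-likelihood test, Benjamini-Hochberg adjustment over all tested genes and a threshold of 0.05. The averaged comparisons are contrasts of that fit. Standard errors were taken as the effect divided by the root of its F value. Ratios to Emr1 used counts plus 0.5. DESeq2 1.42.0, other scalings and filters, a replicate block and left-out libraries were alternatives. No source says how animals were housed or libraries batched, so p-values measure the spread between these tumours.

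The members and the lists were chosen with earlier results of these data known. Every member is named in each comparison, singly or within a range, and from a list the called genes of smallest p, up to 4, with a few partners whatever their values; 1 gene under that rule is not reported here. The monocyte markers and the neutrophil genes were named after their values were seen.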

Additional observations from a re-analysis of the deposited data

How the results depend on the processing

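Under other scalings and filters on low counts, the same direction held for the 6 genes called with the antibody, and 6 were called. Over the table, 279 genes were called lower and 12 higher with RLE scaling, and 303 and 10 with upper-quartile scaling. No scaling moved the median of all genes by more than 0.076 (log2). The averaged antibody effect on Axl, near 0, was -0.04 with upper-quartile scaling. DESeq2 called 7 members for the averaged antibody comparison, adding Gas6 (1425 genes of the table against 282 by edgeR). It called 7 for anti-CSF1 against IgG, 5 for Lupron/anti-CSF1 against Lupron, 2 for Lupron against IgG and 1 for the interaction, where edgeR called none. A fit to the compared groups alone called 5 for Lupron/anti-CSF1 against Lupron (204 genes of the table).

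Same-numbered tumours of different groups showed little shared deviation (median r of 0.05 over 18 pairs, against -0.03 over 36 pairs of other numbers). An r over 0.1 was seen in 7 of the 18 pairs and in 10 of the 36. This does not show a pairing by number, and with so few tumours it cannot exclude one. With the replicate number as a block, 3 members were called with the antibody (Emr1, Aif1 and Lyz2; 151 genes of the table against 282), and the interaction was -0.01 for Mertk and -0.06 for Trem2; the cause was not tested.

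With 1 library left out, members called ran from 2 to 8 for the averaged antibody comparison (65 to 1577 genes of the table), 0 to 4 for anti-CSF1 against IgG (0 to 2611), 0 to 5 for Lupron/anti-CSF1 against Lupron (0 to 210) and 0 to 2 for Lupron against IgG (0 to 653). Ratios to Emr1 ran from 1.02 to 1.52 for Lyz2, 1.99 to 3.24 for Gpnmb and 0.78 to 1.78 for Gas6, which passed without IgG replicate 3. Effects near 0 changed sign in such fits. For the antibody these were Axl averaged (-0.21 to 0.32), Axl (-0.05 to 1) and Mertk (-0.29 to 0.02) in anti-CSF1 against IgG, and Gas6 (-0.57 to 0.36) and Mertk (-0.26 to 0.05) in Lupron/anti-CSF1 against Lupron. For Lupron averaged they were Emr1 (-0.43 to 0.14), Cd68 (-0.36 to 0.13), Cx3cr1 (-0.09 to 0.46), Axl (-0.16 to 0.36) and Trem2 (-0.03 to 0.45). For Lupron against IgG they were Emr1 (-0.51 to 0.62), Cd68 (-0.44 to 0.55), Mertk (-0.04 to 0.28), Axl (-0.01 to 1.03) and Trem2 (-0.44 to 0.54). For the interaction they were Emr1 (-0.96 to 0.22), Cd68 (-0.83 to 0.16), Mertk (-0.17 to 0.22) and Trem2 (-0.38 to 0.82). None of these passed in any of the fits.

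Leaving out IgG replicates 2 and 3 together, chosen after seeing the data, left 1 IgG library, assumed to vary like the other groups. The averaged comparison called Emr1, Cd68, Aif1, Lyz2, Cx3cr1 and Trem2 among 277 genes of the table, anti-CSF1 against IgG 1 member among 7 and Lupron/anti-CSF1 against Lupron 5 among 214. Signs changed for Axl (-0.36) and Gpnmb (0.52) averaged, Axl (-0.37) and Gpnmb (0.72) in anti-CSF1 against IgG, Axl (-0.32), Gas6 (0.54) and Gpnmb (0.07) for Lupron averaged, Emr1 (0.13), Cd68 (0.02), Mertk (-0.04), Axl (-0.33) and Gpnmb (0.27) in Lupron against IgG, and Axl (0.02) and Gpnmb (-0.4) in the interaction. The cause was not tested. Among the 10 members, Trem2 had the fewest reads, 23 in 1 library.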
